A study of Homo sapiens with 2 samples.

Results

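The regions described here are the GFI1 peaks that lay around the centromeres of chromosomes 1, 5, 7, 10 and 11. They were taken by position alone: a peak was a member when its midpoint lay in 1 of 5 fixed intervals of the hg38 build. The intervals themselves were chosen with earlier results of these data known, so their peak density is a description. Of the 15249 peaks of both lists, 1172 were members. They comprised 602 of the 7687 peaks obtained with the antibody ab21061 (7.83%) and 570 of the 7562 peaks obtained with sc8558 (7.54%). Both lists came from chromatin immunoprecipitation followed by sequencing (ChIP-seq) in NB4, an established human acute promyelocytic leukemia line. The cells had no treatment other than fixation with 1% formaldehyde for 10 min, and both libraries share this line and handling. Each antibody has 1 library, and neither has a replicate. The immunoprecipitation protocol in the labels speaks of antibodies to the PML/RARα fusion, and the title of the sc8558 library reads GFI2, whereas both antibody labels name GFI1, which were followed. The number of reads behind each list is unknown, and a control library was not analysed here.

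GFI1 is a zinc-finger protein of blood cells that binds DNA and represses nearby genes, with LSD1, CoREST and histone deacetylases as its known partners. The kinetochore forms on the core alpha satellite array of a centromere. The DNA beside it holds further satellite repeats, packed as heterochromatin with few genes, and on chromosome 1 includes a large block of other satellite families. The intervals do not separate the core from its flanks. In hg38 many centromeres are represented by modelled arrays that stand for large numbers of near-identical copies, so that a short read from one copy can often be placed on another. For reads with several possible places, the treatment is not given in the sources used here. Thus the number of peaks in such a region, and which copy of a repeat a peak marks, are uncertain throughout.

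Each interval was the longest stretch of its chromosome without any annotated gene in the RefSeq table, and 0 genes lay inside any of the 5. On chromosome 1 it ran from 121571889 to 143299517 (21.7 Mb), between EMBP1, a transcribed pseudogene, and the non-coding RNA gene LOC101929814. On chromosome 5 it ran from 45696381 to 50396191 (4.70 Mb), and its upper neighbour was EMB, which encodes the membrane glycoprotein embigin. The chromosome 7 interval, from 57868450 to 60991901 (3.12 Mb), lay between LOC102723842, a non-coding RNA gene, and the pseudogene LOC101060796. The chromosome 10 interval, from 38719383 to 42149318 (3.43 Mb), lay between the pseudogenes CHEK2P5 and KSR1P1. The chromosome 11 interval, from 50420632 to 54591479 (4.17 Mb), lay between the pseudogenes LOC646813 and OR4C50P, the latter of the olfactory receptor family.

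Both antibodies gave members in every interval, in closely matching numbers. Chromosome 5 held 184 ab21061 and 173 sc8558 peaks, and chromosome 1 held 151 of each. Chromosome 10 held 113 and 106, chromosome 7 held 79 and 68, and chromosome 11 held 75 and 72. The exact Poisson 95% intervals of these counts overlapped between the antibodies in each case, for example 62.5 to 98.5 and 52.8 to 86.2 on chromosome 7. Poisson and binomial intervals given here cover counting error only, and with 1 library for each antibody no test between antibodies was made. The intervals supplied a large part of some chromosomes' lists: 29.3% of the 629 ab21061 peaks and 29.4% of the 589 sc8558 peaks of chromosome 5 were members. For chromosome 10 the shares were 25.3% and 22.9%, and for chromosome 7 they were 15.4% and 14.0%.

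The members were dense. Per Mb of interval there were 39.2 ab21061 peaks on chromosome 5 (33.7 to 45.2), 32.9 on chromosome 10 (27.2 to 39.6), 25.3 on chromosome 7 (20.02 to 31.5) and 18.0 on chromosome 11 (14.1 to 22.5). With sc8558 the densities were 36.8, 30.9, 21.8 and 17.3 per Mb, in the same order. Chromosome 1 was lowest at 6.95 per Mb with either antibody, because its peaks lay in a small part of the interval. The last member there ended at 124926245 with ab21061 and at 124926237 with sc8558, and the remaining 18.4 Mb up to the next annotated gene held none. In hg38 the long-arm side of the chromosome 1 centromere contains a large gap without sequence, but its extent was not measured here. Over the 3.18 Mb from the first to the last peak, the chromosome 1 density was 47.5 per Mb with both antibodies. Neighbouring ranks were not always separated: the intervals for chromosomes 5 and 10 overlapped, as did those for chromosomes 10 and 7 and for chromosomes 7 and 11.

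Peaks were spread unevenly within the intervals, and the 2 antibodies followed the same course. On chromosome 1 the first 500 kb held 7 ab21061 and 5 sc8558 peaks, and the steps from 2.5 to 3.5 Mb held 35 and 36 with ab21061 and 37 and 35 with sc8558. On chromosome 5 the count rose from 0 in the first 500 kb to 58 with both antibodies between 3.5 and 4 Mb, and then fell to 14 and 17. On chromosome 10 the steps between 1 and 3 Mb held 21, 34, 31 and 25 ab21061 peaks and 23, 32, 30 and 19 sc8558 peaks. Chromosome 7 was the most even, with 12 to 19 and 10 to 18 peaks in each of its 5 middle steps. On chromosome 11 the steps from 0.5 to 2 Mb held 13 to 17 ab21061 and 12 to 17 sc8558 peaks, and the later steps held at most 9 and 13.

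The densest bins of 100 kb stood on chromosomes 1 and 5. On chromosome 1 the bin from 124671889 to 124771888 held 24 ab21061 and 22 sc8558 peaks. On chromosome 5 the bin from 49496381 to 49596380 held 24 and 23. No bin of the other 3 intervals held more than 10 with ab21061 or 11 with sc8558. Of 374 bins, 131 held peaks of both antibodies, 12 of ab21061 alone, 7 of sc8558 alone and 224 of neither. Most of the bins without a peak, 188, were on chromosome 1. Where single-antibody bins occurred most was chromosome 11, with 5 for each antibody.

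**Figure D1:**
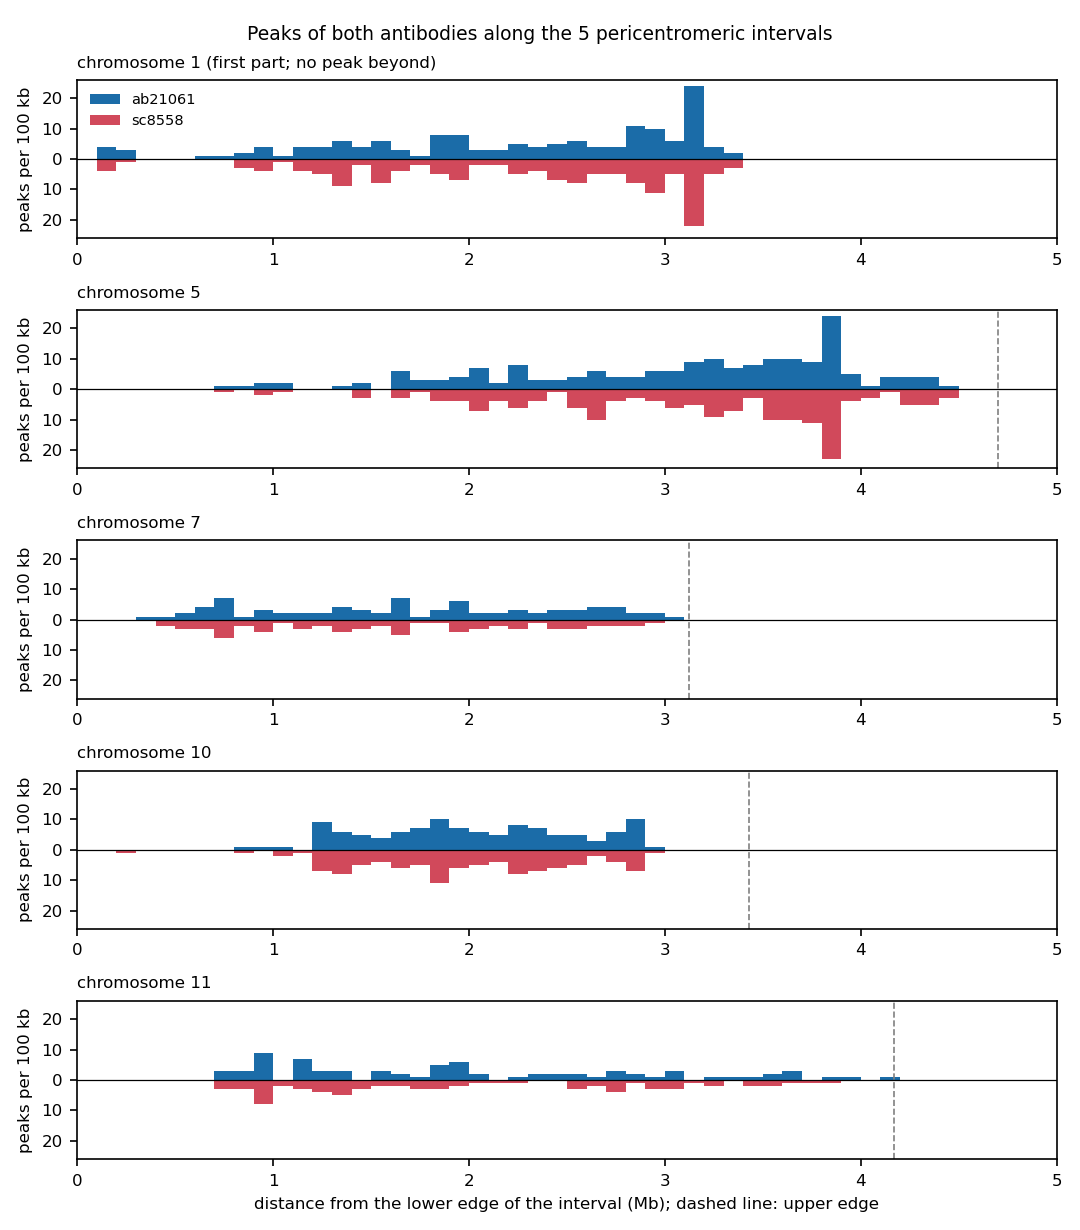
Number of peaks per bin of 100 kb (vertical axis) against distance from the lower edge of each interval in Mb (horizontal axis), with ab21061 upwards and sc8558 downwards. Both antibodies reach their highest bins, 24 and 22 peaks on chromosome 1 and 24 and 23 on chromosome 5, at the same place, and the chromosome 1 panel shows the part of its interval that holds peaks.

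Members lay closer to each other than the peaks of the lists at large did. The median distance from a member to the nearest other peak of its own list was 7.36 kb with ab21061 (95% interval of the median 6.36 to 8.24) and 7.83 kb with sc8558 (6.97 to 9.13). Outside the intervals it was 50.5 kb (47.9 to 53.2) and 50.6 kb (48.0 to 53.3). Close spacing was not particular to the members, since in the longest gene-free stretches of the other 19 chromosomes, described further on, it was 11.6 kb (9.50 to 13.9) and 16.4 kb (13.5 to 18.1). Chromosomes 1, 5 and 10 had ab21061 medians of 5.62, 5.97 and 5.47 kb, and chromosomes 7 and 11 had 15.1 and 15.0 kb. With sc8558 the medians were 5.59, 5.98 and 6.97 kb on the first group and 22.1 and 11.7 kb on the second. Within 5 kb of another peak of the same list were 54 of the 113 ab21061 members on chromosome 10 (47.8%) but 12 of the 79 on chromosome 7 (15.2%). The longest stretch without a peak between members was 600.6 kb for sc8558 on chromosome 1, from 121775814 to 122376365, and 607.4 kb for sc8558 on chromosome 10, from 38962891 to 39570248. The latter follows a lone sc8558 peak without which the chromosome 10 members of both lists would begin within the same bin.

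Because each list came from a different antibody, the places that both marked were counted. An sc8558 peak overlapped 402 of the 602 ab21061 members by at least 1 bp (66.8%, exact Clopper-Pearson interval 62.9 to 70.5), where 63.7% of the whole ab21061 list was overlapped. In the other direction 399 of the 570 sc8558 members were overlapped (70.0%, 66.1 to 73.7), where the whole sc8558 list gave 65.0%. Against the peaks outside the intervals the difference was 3.35 percentage points for ab21061 (Newcombe interval -0.668 to 7.16), which included 0, and 5.35 points for sc8558 (1.31 to 9.14), which did not. The denser packing of members moves with overlap too, and its part in these differences was not tested. The sc8558 interval came to include 0 when chromosome 1, 5 or 10 was left out (4.57, 4.37 and 4.32 points), and that for ab21061 came to exclude 0 without chromosome 7 or 11 (4.45 and 5.45 points). Merging the members of both lists gave 769 regions, of which 398 held both antibodies, 200 ab21061 alone and 171 sc8558 alone.

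Among the intervals the chromosome 11 peaks were the least shared. With ab21061 the shares were 72.2% on chromosome 1, 71.7% on chromosome 10, 68.5% on chromosome 5, 59.5% on chromosome 7 and 52.0% on chromosome 11. With sc8558 they were 74.5% on chromosome 10, 72.3% on chromosome 5, 72.2% on chromosome 1, 69.1% on chromosome 7 and 54.2% on chromosome 11. Chromosome 11 lay 16.9 points below the other 4 intervals as a whole with ab21061 (difference -16.9, -28.6 to -5.21) and 18.1 below with sc8558 (-18.1, -30.1 to -6.38). For each of the remaining intervals the corresponding difference had an interval that included 0 with both antibodies. Chromosome 11 was picked out after its values were seen.

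Scores tell how strongly a peak was called within its list. They are the authors' own values, and their size is not comparable between the lists. The same limit of 100 was applied in each list, and scores were set side by side only for the peaks of a pair, whose order was compared by rank. The ab21061 members had scores from 50.06 to 1567.02 with a median of 85.6 (interval 81.0 to 91.7), and the peaks outside had a median of 82.1 (80.8 to 83.5). The sc8558 members had scores from 50.06 to 1315.64 with a median of 82.9 (78.5 to 88.8), against 81.6 outside (80.2 to 83.2). A score of 100 or more was reached by 229 ab21061 members (38.0%) against 37.7% of the whole list, and by 214 sc8558 members (37.5%) against 37.4%. These shares are near the background. The differences from the peaks outside were 0.326 points (-3.63 to 4.43) and 0.115 points (-3.93 to 4.32), and both intervals included 0.

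The chromosomes differed from one another. On chromosome 10, 53.1% of the ab21061 members and 45.3% of the sc8558 members scored 100 or more. On chromosome 11 the shares were 18.7% and 20.8%. Against the other 4 intervals, chromosome 10 lay 18.5 points higher with ab21061 (8.42 to 28.4) and 9.51 points higher with sc8558 (-0.669 to 19.9), where the interval included 0. Chromosome 11 lay lower with both, by differences of -22.1 (-30.5 to -11.1) and -19.1 points (-28.0 to -7.59). The gap between these chromosomes was 34.4 points with ab21061 (20.7 to 45.9) and 24.4 with sc8558 (10.3 to 36.7). They were chosen as the highest and the lowest after the values were seen, so the gap is a description. Chromosomes 1, 5 and 7 lay between, at 37.7%, 38.6% and 34.2% with ab21061 and 38.4%, 41.0% and 32.4% with sc8558. The chromosome that was least shared was thus also the one with the lowest scores, and the part of score in that result was not tested.

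Overlap rose steeply with score, inside the intervals as outside. Of the ab21061 members scoring from 50 to 60, 36.2% were overlapped (28.3 to 44.7), against 31.3% outside. From 100 to 150 it was 86.7% (78.4 to 92.7) against 82.5%. From 150 to 200, 47 of 47 were overlapped, and at 200 or more 83 of 84 were. Of the sc8558 members scoring from 50 to 60, 43.0% were overlapped (33.7 to 52.6) against 31.6% outside, a difference of 11.4 points (2.34 to 20.8). All 50 from 150 to 200 and all 72 at 200 or more were overlapped. Of the 12 comparisons by score class and antibody, that of the lowest sc8558 class was the 1 whose interval excluded 0. Peaks outside the intervals, weighted to the members' score classes, would have been overlapped in 64.1% (ab21061) and 65.6% (sc8558) of cases, against the members' 66.8% and 70.0%. This weighting does not match peak density, whose part in the class differences was not tested.

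**Figure D2:**
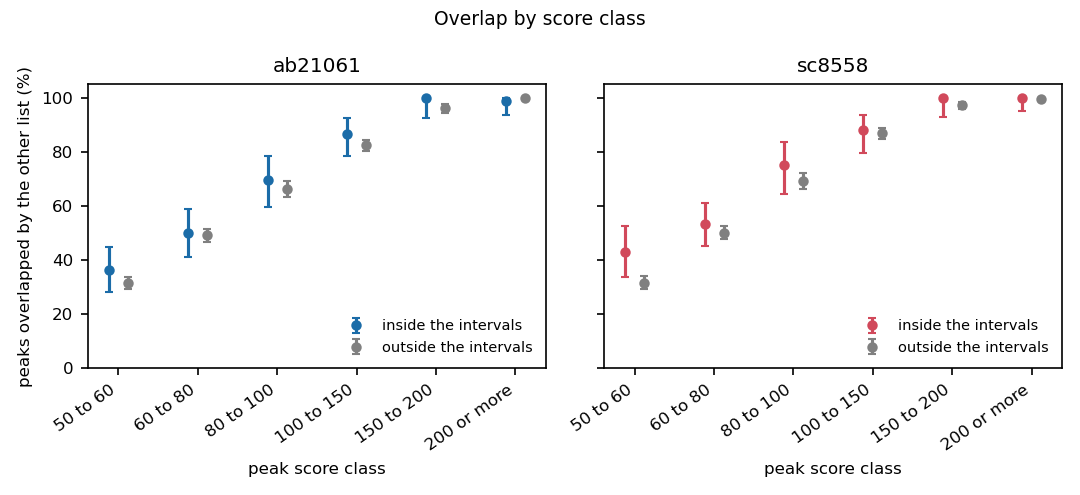
Share of peaks overlapped by a peak of the other list in percent (vertical axis) in 6 classes of score (horizontal axis), with exact 95% intervals, for members in colour and the remaining peaks in grey. Members and other peaks rise together, from 36.2% and 31.3% in the lowest ab21061 class to 98.8% and 99.9% in the highest.

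Members were narrower than other peaks. Their median width was 631 bp with ab21061 (607 to 649) and 604 bp with sc8558 (582 to 629), against 790 bp (783 to 797) and 759 bp (751 to 766) outside. The 5 intervals were alike in this, with medians of 598 to 653 bp for ab21061 and 565 to 650.5 bp for sc8558. The gap widened with score. In the class from 50 to 60 the ab21061 medians were 547 bp inside and 599 bp outside, from 100 to 150 they were 654.5 and 882 bp, and at 200 or more they were 748.5 and 1155.5 bp. The sc8558 medians at 200 or more were 711.5 and 1106 bp. The median was lower inside in all 12 classes. Set against the outside median of their own score class, 450 of the 602 ab21061 members were narrower (74.8%, 71.1 to 78.2), as were 431 of the 570 sc8558 members (75.6%, 71.9 to 79.1).

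**Figure D3:**
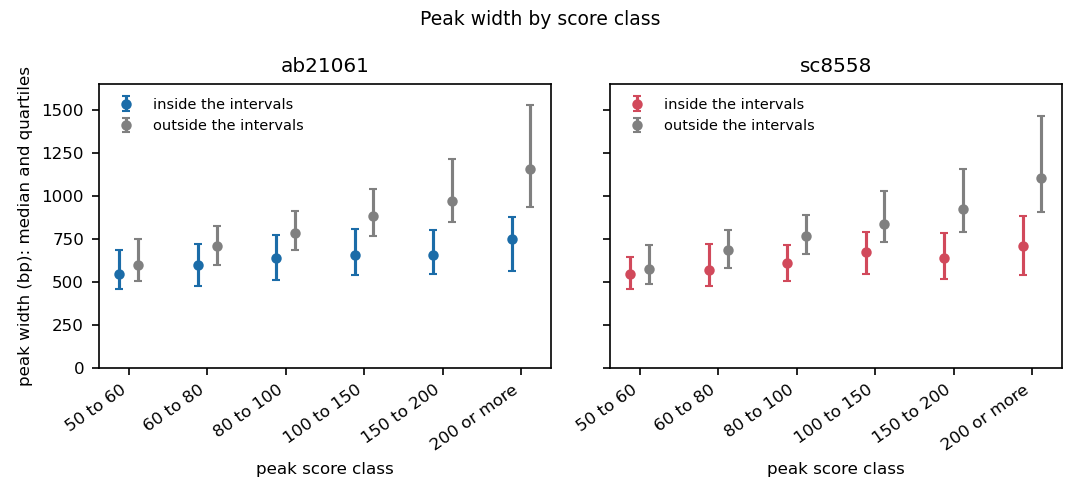
Peak width in bp (vertical axis, median with quartiles) in 6 classes of score (horizontal axis), for members in colour and the remaining peaks in grey. Outside the intervals width grows from 599 to 1155.5 bp with ab21061, whereas inside it grows from 547 to 748.5 bp.

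Where the antibodies met, they met closely, inside the intervals as outside. The members formed 403 overlapping pairs, whose midpoints were a median of 55 bp apart, against 70.5 bp for the 4559 pairs outside. Paired peaks were also narrower inside, with median widths of 656 bp (ab21061) and 640 bp (sc8558) against 864 and 821 bp outside. The offsets are therefore not compared at equal width. The overlap covered a median of 79.9% of the pair's joint span, against 78.2% outside. Pair scores had a Spearman rank correlation of 0.721 over the 403 pairs and of 0.692 over the pairs outside. By chromosome, the rank correlation was 0.725 (109 pairs, chromosome 1), 0.6996 (126, chromosome 5), 0.699 (48, chromosome 7), 0.756 (81, chromosome 10) and 0.673 (39, chromosome 11). These are descriptions across peaks, which share their library and depth and are not replicates. For widths the rank correlation was 0.597 inside and 0.675 outside.

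**Figure D4:**
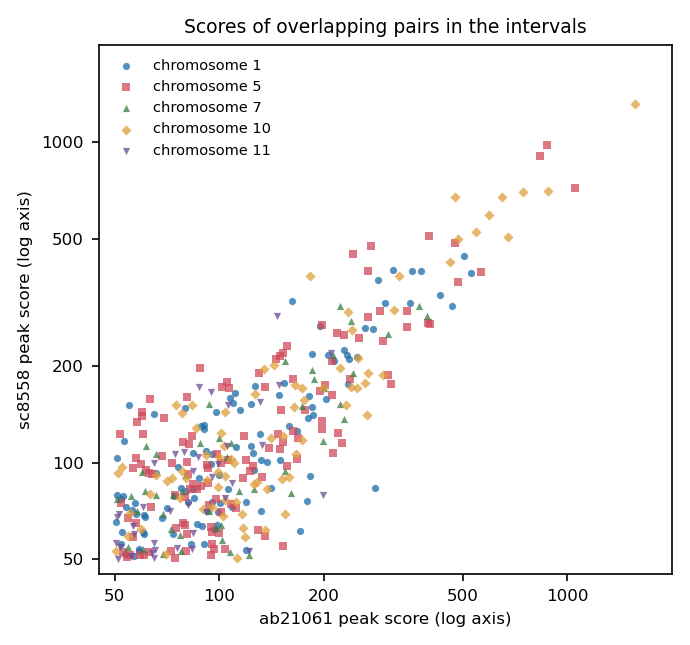
Score of the sc8558 peak (vertical axis, log scale) against score of the ab21061 peak (horizontal axis, log scale) for the 403 overlapping pairs in the intervals, with 1 symbol for each chromosome. The pair at the upper right is on chromosome 10, with scores of 1567.02 and 1315.64, and the chromosome 11 pairs reach at most 210.04 with ab21061 and 286.42 with sc8558.

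The single highest member of each list lay on chromosome 10, and chromosomes 5 and 10 shared the next places. The highest ab21061 peak, from 40980779 to 40981559, scored 1567.02 and ranked 14 in its whole list. Its sc8558 partner, from 40980772 to 40981663, scored 1315.64 and ranked 19. The next members by score there were also the same with both antibodies. A pair from 40593185 to 40593815 (ab21061) and from 40593245 to 40593803 (sc8558) scored 878.9 and 702.33. A broad pair from 40412222 to 40414801 and from 40412357 to 40414701, of 2580 and 2345 bp, scored 747.11 and 697.73.

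On chromosome 5 the same 3 pairs led both lists, in a different order. The ab21061 peak from 46433315 to 46435504 scored 1054.13 and was the first member from the lower edge, and its sc8558 partner, from 46433237 to 46435441, scored 720.61. The widest members of all lay on the other side of the interval, from 49612082 to 49617390 (5309 bp) and from 49612138 to 49617447 (5310 bp). They scored 872.92 with ab21061 and 980.34 with sc8558. The remaining pair, near them, ran from 49630679 to 49631884 and from 49630699 to 49631879 and scored 835.83 and 903.86.

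Of the 5 places that led on chromosome 1 with either antibody, 4 stood near the upper limit of the occupied part. The ab21061 peak from 124741039 to 124741729 scored 529.63 and its partner 390.5. The pair from 124777787 to 124778393 and from 124777953 to 124778384 scored 505.07 and 441.04, and was the highest with sc8558. The next ab21061 peak, from 123466548 to 123467227, scored 466.36 against 307.56 for its partner. With sc8558 the next were those from 124631314 to 124631831 (400.09, partner 315.89) and from 124770659 to 124771482 (397.37, partner 381.07).

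Chromosomes 7 and 11 had lower maxima. On chromosome 7 the ab21061 peak from 58769716 to 58770607 scored 396.34 and its partner 285.93. A second ab21061 peak, from 59111168 to 59111917, scored 375.03, and its partner, at 309.23, was the highest sc8558 member there. Another ab21061 peak, from 59942719 to 59943413, scored 304.54 against 251.85, and the second sc8558 peak, from 58631751 to 58632988, scored 308.33 against 221.52. On chromosome 11 the highest ab21061 peak, from 51696643 to 51697458, scored 210.04 and its partner 219.6. The ab21061 peak from 51771921 to 51772500 scored 198.02 against 79.51, and that from 53486444 to 53487363 scored 148.09 against 175.45. The highest sc8558 peak there, from 52974832 to 52975774, scored 286.42, and its ab21061 partner 146.53. Of the 3 leading places of each list, all 3 were common to both antibodies on chromosomes 5 and 10, 2 on chromosomes 7 and 11, and 1 on chromosome 1.

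Members without an overlap scored low, and many stood beside a peak of the other list. Their median scores were 61.9 with ab21061 (200 peaks) and 64.1 with sc8558 (171 peaks), against 104.5 and 101.75 for overlapped members. Within 5 kb of a peak of the other list were 76 of the 200 (38.0%) and 68 of the 171 (39.8%). Outside the intervals these shares were 16.9% and 16.6%, so the differences were 21.1 points (14.5 to 28.2) and 23.1 points (15.9 to 30.8). The dense packing of members moves with this measure, and its part in the result was not tested. The highest member without overlap was the ab21061 peak on chromosome 10 from 39968069 to 39968510, which scored 211.67 and lay 0.260 kb from the closest sc8558 peak. On chromosomes 1, 5, 7 and 11 the highest ab21061 members without overlap scored 105.44, 106.18, 122.33 and 130.83, at 1.51, 19.2, 13.4 and 43.2 kb from the nearest sc8558 peak. For sc8558 the highest scored 124.45 on chromosome 1, 100.95 on chromosome 5, 113.91 on chromosome 7, 132.58 on chromosome 10 and 143.79 on chromosome 11. Their distances to the closest ab21061 peak were 18.6, 11.5, 8.63, 2.33 and 4.98 kb.

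Peaks were sparser beyond the edges than inside on chromosomes 5, 7, 10 and 11, but the change did not always lie at the edges. On chromosomes 5, 10 and 11 the first 500 kb inside the lower edge held at most 1 peak of either list. Within 2 Mb of the edges there were 82 ab21061 and 65 sc8558 peaks, or 4.10 and 3.25 per Mb, against 16.2 and 15.3 per Mb inside. Chromosome 1 held 46 and 37 of these. Its flanks, at 11.5 and 9.25 per Mb, were denser than its interval as a whole, at 6.95. They were sparser than the 3.18 Mb from its first to its last member, at 47.5 per Mb with both antibodies. Chromosome 11 held 0 of either list. On chromosome 7 the first 500 kb above the upper edge held 16 and 14 peaks, so the dense run went on past the pseudogene that ends the interval. On chromosome 5 the first 500 kb above held 6 and 4 and the remaining steps held none. The first members lay 175 kb (both antibodies) inside the lower edge on chromosome 1, 737 kb (both) on chromosome 5, 338 and 407 kb on chromosome 7, 851 and 243 kb on chromosome 10, and 710 kb (both) on chromosome 11. The nearest excluded peaks below those edges were 176 and 13.0 kb away on chromosome 1, 2181 kb away with both antibodies on chromosome 5, 805 and 316 kb on chromosome 7, 363 and 748 kb on chromosome 10, and 2310 and 2370 kb on chromosome 11. At the upper edges the last members lay 253 and 251 kb inside on chromosome 5, 25.6 and 188 kb on chromosome 7, 451 and 445 kb on chromosome 10, and 54.8 and 335 kb on chromosome 11. The nearest excluded peaks above were 39.2 and 12.4 kb away on chromosome 1, 239 and 193 kb on chromosome 5, 136 and 3.48 kb on chromosome 7, 1156 kb with both on chromosome 10, and 2853 kb with both on chromosome 11. With ab21061 the scores of these excluded peaks ran from 50.38 to 705.0, and those of the members just inside from 50.38 to 1054.13. With sc8558 they ran from 51.27 to 596.24 outside and from 51.45 to 720.61 inside.

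Genes beside the intervals differed by chromosome in whether they carried peaks. Of 116 protein-coding genes within 2 Mb of an edge, 22 had an ab21061 peak within 10 kb of their span (18.97%, 12.3 to 27.3), where 17.7% of all 20037 protein-coding genes did. With sc8558 it was 16 of 116 (13.8%, 8.09 to 21.4) against 18.0%, and 16 had peaks of both antibodies against 13.7% of all genes, so the counts were near the background. Of the 27 genes beside the chromosome 1 interval, 17 had an ab21061 peak (63.0%, 42.4 to 80.6) and 12 an sc8558 peak (44.4%, 25.5 to 64.7). Both shares were above those of all genes, but some neighbouring genes have the same peak and are not independent counts. Of the 51 genes beside the chromosome 11 interval, 0 had a peak of either antibody, which allows a share of up to 6.98% (exact upper bound, counting error only). The flanks of that interval held 0 peaks of either list, so these genes too are not independent counts.

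The chromosome 1 genes with the strongest shared peaks belong to families duplicated in the human lineage. A gene's peak here lies within 10 kb of its span, and those of FAM72C, FAM72D, SRGAP2B and HNRNPF lie outside the span. NBPF15, a neuroblastoma breakpoint family gene, had a shared peak with scores of 269.19 and 206.69 (ab21061 from 144460169 to 144461310). FAM72C had one with scores of 245.84 and 196.49 (from 143947042 to 143948021), and its copy FAM72D one with 181.62 and 155.29 (from 145119703 to 145120790). SRGAP2B, a partial copy of SRGAP2, which encodes a regulator of neuronal migration, had one with 168.06 and 226.99 (from 144884048 to 144884766). Such copies are nearly identical in sequence, so their peaks may be split or shared between them. Beside chromosome 10, ZNF25, a zinc-finger gene, had a shared peak with scores of 219.36 and 158.69 (from 37969174 to 37971188). HNRNPF, which encodes an RNA-binding splicing factor, had one with 76.7 and 73.33 (from 43417619 to 43419183). Beside chromosome 7, PSPH, which encodes the last enzyme of serine synthesis, had the strongest shared peak of any of these genes, with scores of 455.82 and 394.77 (from 56033594 to 56034970). Beside chromosome 5, PARP8, which encodes a member of the ADP-ribosyltransferase family, had ab21061 peaks up to 52.28 and 0 sc8558 peaks.

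The excluded ab21061 peak nearest to the lower edge of chromosome 1, with a score of 75.72, lay over the start of LINC02798, from 121395220 to 121396055. It was overlapped by an sc8558 peak from 121395307 to 121396027 that scored 121.58. Among 220 RefSeq promoter windows within 2 Mb of an interval, 2 were overlapped by an ab21061 peak, 3 by an sc8558 peak and this 1 by both. Over all 35116 windows the shares were 1.75% with ab21061, 1.80% with sc8558 and 1.23% with both. The shares beside the intervals, 0.909% (0.110 to 3.25), 1.36% (0.282 to 3.93) and 0.455% (0.0115 to 2.51), had counting intervals that held those of all windows. Its 250 bases before the gene start are shown because this was the 1 promoter beside the intervals that both antibodies marked. The sequence is from RefSeq on GRCh38.p14, chr1:121395322-121395571 on the plus strand, written from 5′ to 3′. Capitals mark AAATC, the letters around the AATC core that GFI1 is known to bind.
LINC02798: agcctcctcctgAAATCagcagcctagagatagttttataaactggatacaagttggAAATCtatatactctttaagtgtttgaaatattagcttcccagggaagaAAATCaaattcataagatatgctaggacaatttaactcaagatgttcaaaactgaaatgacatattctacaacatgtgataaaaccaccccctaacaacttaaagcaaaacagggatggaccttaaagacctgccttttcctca
AAATC occurred 3 times on the strand shown and 0 times on the other. Of 35116 RefSeq windows of the same length before a gene start, 29.9% held it on either strand. A match of 5 letters describes the window and is not evidence of a site.

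The intervals, chosen with earlier results of these data known, were set beside the longest gene-free stretches of the other 19 chromosomes. The contrast in density is therefore a description. Together the 19 stretches held 398 ab21061 and 362 sc8558 peaks, or 2.53 and 2.30 per Mb, and 5 and 4 of them held no peak. Those without a peak of either antibody were on chromosomes 14, 21, 22 and Y, and chromosome 15 had none with ab21061. How much of each stretch has sequence in hg38 was not measured here, so the pooled densities may not compare like with like. The stretch of chromosome 19, from 24179012 to 27681071, was the densest of all 24, with 48.0 ab21061 peaks per Mb (41.0 to 55.8) and 43.4 sc8558 peaks per Mb (36.8 to 50.9). Next among the 19 were chromosome 2 with ab21061 (21.8 per Mb) and chromosome 6 with sc8558 (13.9). The counting intervals of chromosomes 5 and 19 overlapped with both antibodies. As background, chromosomes 1, 5 and 19 carry nearly the same family of alpha satellite, and whether reads were exchanged between them was not tested.

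As a whole, members were more often shared than the pooled peaks of the stretches of other chromosomes, although single stretches went the other way. In those stretches 52.8% of ab21061 peaks (47.7 to 57.8) and 58.0% of sc8558 peaks (52.7 to 63.1) were overlapped, which was 14.0 points (7.81 to 20.1) and 11.99 points (5.68 to 18.3) below the members. Without chromosome 19, which was singled out after its values were seen, the shares were 41.7% (35.3 to 48.4) and 46.2% (39.3 to 53.2). Chromosome 19 itself had 67.9% and 74.3%, within the range of the 5 intervals with both antibodies. On chromosome 17 the shares were 91.3% of 23 ab21061 peaks (72.0 to 98.9) and 87.5% of 24 sc8558 peaks (67.6 to 97.3), above each of the 5 intervals, and its median scores were 183.75 and 143.1. On chromosome 18 they were 84.6% of 13 ab21061 peaks (54.6 to 98.1) and 64.7% of 17 sc8558 peaks (38.3 to 85.8). Median scores over all the stretches were lower as well, at 71.7 and 70.1. A score of 100 or more was reached by 24.9% and 26.8% of their peaks, against 38.0% and 37.5% of members. The parts of score and of peak density in the lower overlap were not tested. Median widths, in contrast, were 621 and 603 bp, close to the members' 631 and 604 bp. Without chromosome 19 they were 661.5 bp (ab21061) and 634.5 bp (sc8558), at median scores of 65.65 and 64.3. Width rose with score, so these medians do not compare the sets at equal score.

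**Figure D5:**
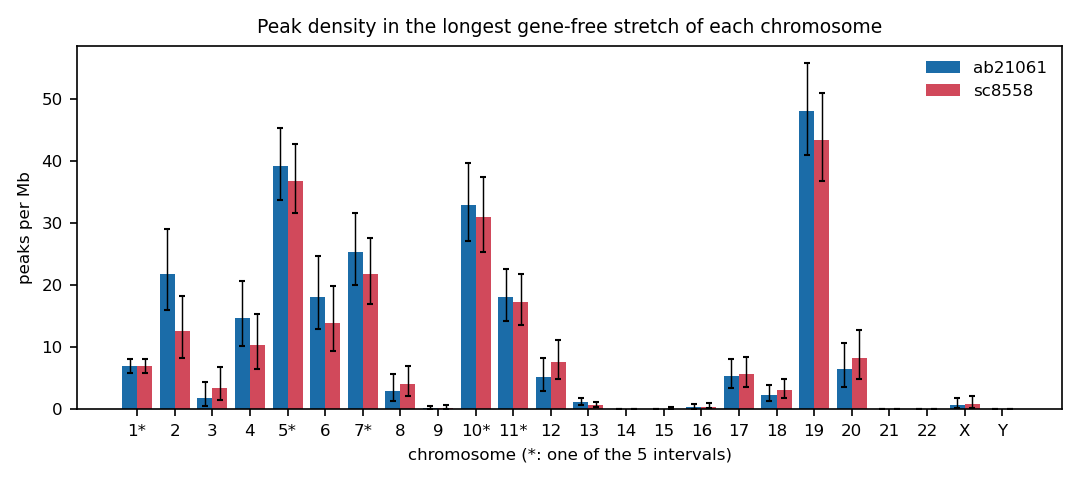
Peaks per Mb (vertical axis, from 0) in the longest gene-free stretch of each chromosome (horizontal axis), with exact Poisson 95% intervals, for ab21061 in blue and sc8558 in red. Chromosome 19 is highest at 48.0 and 43.4 per Mb, followed by chromosome 5 at 39.2 and 36.8.

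Across the genome, the members filled many of the densest windows. Because the intervals were chosen with earlier results of these data known, this is a description and not a separate result. Of the 10 windows of 1 Mb with the most peaks, 7 held members in each list, against a median of 3 peaks in the 1995 and 1976 windows with any peak. The window of chromosome 5 from 49000001 to 50000000 held 82 ab21061 peaks and 77 sc8558 peaks. That of chromosome 1 from 124000001 to 125000000 held 75 and 77, and that of chromosome 10 from 40000001 to 41000000 held 63 and 62. All of these peaks were members. With sc8558 the count at the tenth place, 32, was shared by 1 further window. The windows of chromosome 19 among the 10 held 68 and 49 ab21061 peaks and 61, 46 and 33 sc8558 peaks.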

How the data were processed

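The 2 peak lists are as the authors deposited them, 1 per library. The build, hg38, and the tools, MACS 1.4.2 with Bowtie2 2.2.9, are named per the submitters' processing notes. For options, read filters, the control and reads with several places, the choice is not given in the sources used here. Each score in the fifth column is the authors' deposited value for each peak from the peak caller and is not comparable between libraries. Depth is unknown, and no test was made between antibodies.

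Members and lists were chosen with earlier results of these data known. Starts were counted from 1. Overlap was counted from 1 bp against the full other list. Exact Clopper-Pearson, Poisson and Newcombe 95% intervals and order-statistic intervals of medians cover counting error only. Gene positions came from RefSeq (GRCh38.p14, 59679 genes on these chromosomes). Peaks named were, per interval and list, the 3 highest scores, the highest without overlap and those nearest the edges, and the genes named were those at the edges (1 is not reported here) and up to 4 per interval with a shared peak within 10 kb. PARP8, LINC02798 and single bins and windows were named after their values were seen. The planned sequence content of members was not analysed here. Counting was tested on simulated data. Software was scipy 1.17.1, pandas 2.3.3 and numpy 2.4.6 under Python 3.11.15, with figures from matplotlib 3.10.9.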

Additional observations from a re-analysis of the deposited data

How the results depend on the processing

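No paired analysis was possible because each antibody has 1 library and the result comes from no test. Of 94 recomputed values, 68 stayed within counting error of the value reported (for counts, within 1.5 times), 18 moved, and 8 changed whether the interval of a difference included 0. None changed direction. Leaving out any 1 of the 5 intervals moved no share, median score or median width beyond counting error, but it did decide the overlap difference between members and other peaks. For sc8558 that difference (5.35 points) came to include 0 without chromosome 1 (4.57), 5 (4.37) or 10 (4.32), and with both lists limited to scores from 100 upwards (3.82) or only its own (1.43). For ab21061 it (3.35 points) came to exclude 0 without chromosome 7 (4.45) or 11 (5.45) and with midpoints within 500 bp (4.08).

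At a score of 100 or more the members numbered 229 (ab21061) and 214 (sc8558), which is fewer by construction. Overlap was then 70.7 and 75.7% with that score in both lists, and 93.9 and 94.9% against the full other list. Bins with a peak fell from 38.2 and 36.9% to 26.5 and 24.3% at that score and to 31.3 and 30.7% with bins of 50 kb. Median spacing rose to 17.2 and 18.6 kb. Within 1 Mb of the edges, 29.4 and 23.5% of genes had a peak, against 18.97 and 13.8% within 2 Mb, and the cause was not tested. The Spearman rank correlation of pair scores was 0.730 with 50% overlap of both peaks (383 pairs) and 0.769 at 100 or more in both (163 pairs). Density over the span from the first to the last peak, an alternative chosen after seeing the data, was 39.7 and 37.3 per Mb against 16.2 and 15.3. The planned sequence content was not run.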
